A study of Mus musculus with 9 samples.

Results

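The replication-dependent histone genes were taken as every gene whose platform symbol begins with Hist1h, Hist3h or Hist4h, or carries the current name of such a gene. On this array 57 of 52917 transcript clusters (probe sets summarised to a locus) carried such a symbol. Of these, 24 listed a single symbol and represented 23 genes: 5 of histone H1, 6 of H2A, 7 of H2B, 3 of H3 and 2 of H4. The other 33 listed several symbols each and could not name a gene. They are described by class and by the symbol listed first, with 7 for H2A, 9 for H2B, 4 for H3, 10 for H4 and 3 that mixed classes or included a gene that is no histone.

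Retinas of mice on a mixed C57Bl/6x129SvJ background had been dissected at postnatal day 8 and hybridised to an Affymetrix whole-transcript array, 1 array per retina sample. There were 3 groups of 3 biological replicates: wild type (WT), the Rb knockout (Rb KO) and the Rb/p107 double knockout (Rb/p107 DKO). All groups shared strain, tissue and age. The labels do not say how or in which cells Rb or p107 was removed, nor how many animals gave each sample.

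The nucleosome holds a core of H2A, H2B, H3 and H4 around which DNA is wound, and H1 binds the linker DNA between cores. Replication-dependent histone genes lie in clusters, have no introns, and are transcribed mainly in S phase; their messages end in a stem-loop bound by SLBP instead of a poly(A) tail, although some of the genes also give polyadenylated messages in differentiated cells. Rb and p107 belong to the pocket protein family, which binds E2F transcription factors and restrains entry into S phase, and most cells of the mouse retina leave the cell cycle around and soon after birth.

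Values are log2 intensities. A reading counted as above background when it exceeded a limit set on each array by its 5222 negative controls, their 95th percentile, which lay between 7.94 and 8.50. A gene or probe set counted as above background in a group when any array of that group exceeded the limit. Of the 12 retinal marker genes listed, 8 had a probe set of their own, and all 8 were above that percentile in every group. The Rb1 probe set read 10.22 ± 0.23 in WT, 9.91 ± 0.09 in Rb KO and 9.86 ± 0.13 in the double knockout (SD, n = 3), a log2 difference from WT of -0.31 (adjusted p = 0.0793) and -0.36 (adjusted p = 0.0423). The labels do not give the deleted part of the gene, so this reading does not check the genotype. The p107 gene, Rbl1, was not analysed here. In whole tissue, fewer cells of a type and less RNA per cell cannot be told apart.

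Since most members moved together, promoters are shown for H1, for H2B with the divergent H2A gene it adjoins, for H3 and for H4, and for Hist1h1c, which moved the other way. Of 60 histone gene IDs listed by the 57 probe sets, 55 had a RefSeq promoter window of 300 bases (GRCm38.p6, 250 before and 50 after the start), 56 windows in all. The searched letters, on either strand, were ATTTGCAT (the octamer bound by Oct-1), the CCAAT box, the TATA box as TATAAA, the H1 box as AAACACA, the core of site II of H4 genes as GGTCCG, and the E2F forms TTTCCCGC, TTTGGCGC, TTTCGCGC and TTTGCCGC; matches could overlap. CCAAT stood in 85.7% of histone windows and in 37.4% of all 32851 windows. Each window of H1, H2A, H2B and H3 held it, against 27.3% of the 11 H4 windows. The octamer was found in 42.9% of H2A and 40.0% of H2B windows and in 1.74% of all. AAACACA was in 83.3% of the 6 H1 windows against 7.18% of all, and GGTCCG in 90.9% of H4 windows against 8.25%. TATAAA was in 57.1% of histone windows and 13.6% of all. An E2F form was in 17.9% of histone windows and 2.26% of all. The bases before the start are printed 5′ to 3′ on the gene's strand. Searched letters that lie wholly within the printed bases are in capitals. Hist1h1b (current name H1f5) is at chr13:21780626-21780875 on the minus strand, and Hist1h1c (H1f2) at chr13:23738557-23738806 on the plus strand. Hist1h2bk (H2bc12) is at chr13:22035644-22035820 on the plus strand, where 177 bases separate it from the divergent Hist1h2ah. Hist1h3c (H3c3) is at chr13:23745522-23745771 and Hist1h4a (H4c1) at chr13:23761250-23761499, both on the minus strand. A match is a description of the letters and not a bound site.
Hist1h1b: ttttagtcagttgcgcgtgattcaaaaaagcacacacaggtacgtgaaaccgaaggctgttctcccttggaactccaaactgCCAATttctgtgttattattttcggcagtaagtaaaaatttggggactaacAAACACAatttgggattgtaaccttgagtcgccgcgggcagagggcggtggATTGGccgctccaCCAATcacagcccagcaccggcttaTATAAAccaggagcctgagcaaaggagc
Hist1h1c: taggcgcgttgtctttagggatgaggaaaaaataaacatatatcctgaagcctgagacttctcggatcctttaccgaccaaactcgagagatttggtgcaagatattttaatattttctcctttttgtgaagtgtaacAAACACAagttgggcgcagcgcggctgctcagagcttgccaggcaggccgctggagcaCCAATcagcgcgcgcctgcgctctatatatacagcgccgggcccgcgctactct
Hist1h2bk: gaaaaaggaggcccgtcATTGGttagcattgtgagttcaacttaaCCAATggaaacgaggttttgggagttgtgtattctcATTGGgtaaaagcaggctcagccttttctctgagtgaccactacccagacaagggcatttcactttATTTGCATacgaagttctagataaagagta
Hist1h3c: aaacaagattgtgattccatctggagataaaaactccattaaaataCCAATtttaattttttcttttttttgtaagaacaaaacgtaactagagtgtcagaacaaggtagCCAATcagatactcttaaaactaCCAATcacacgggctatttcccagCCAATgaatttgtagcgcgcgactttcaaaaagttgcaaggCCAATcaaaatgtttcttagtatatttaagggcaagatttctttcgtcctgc
Hist1h4a: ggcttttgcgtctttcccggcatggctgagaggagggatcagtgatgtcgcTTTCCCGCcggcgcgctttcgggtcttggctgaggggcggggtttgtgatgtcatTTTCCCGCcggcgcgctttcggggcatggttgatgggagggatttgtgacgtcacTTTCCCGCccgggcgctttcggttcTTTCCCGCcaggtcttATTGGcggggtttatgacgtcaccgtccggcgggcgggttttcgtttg
Both H1 promoters carry the AAACACA letters, 117 bases before the start in Hist1h1b and 112 in Hist1h1c, and a CCAAT 53 and 54 bases before it. Hist1h2bk has the octamer 30 bases before its start, Hist1h3c has CCAAT at 5 places, and Hist1h4a has the E2F form TTTCCCGC at 4 places, the nearest 64 bases before the start. It is not typical of its class: an E2F form stood in 1 of the 11 H4 windows (9.09%), that of Hist1h4a, which is also the H4 window without GGTCCG. E2F forms were in 35.7% of H2A and 26.7% of H2B windows and in none of H1 or H3. The window of Hist1h2bk and that of its divergent partner Hist1h2ah each held such a form. In Hist1h2bk the form does not lie wholly within the printed bases, so it is not in capitals above.

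Histone genes were higher in both mutants. Of the 23 genes, 22 were called higher in Rb KO than in WT, none was called lower, and Hist1h1c was not called. In the double knockout 21 were called higher, Hist1h1c was called lower and Hist1h1t, a testis H1, was not called. A call is an adjusted p under 0.05 in limma over all genes; 24.4% of 24261 genes were called in Rb KO against WT (10.2% higher, 14.3% lower) and 29.3% in the double knockout against WT (12.2% higher, 17.1% lower). The median log2 difference of the 23 genes was 1.76 in Rb KO and 1.58 in the double knockout, where the median over all genes was -0.05 and -0.06. The arrays of the groups did not overlap for 22 of 23 genes in each comparison with WT, which held for 35.8% and 43.8% of all genes. The comparisons share the WT arrays. The sizes rest largely on dim readings: 4 of the 23 genes were above background in WT, 12 in Rb KO and 10 in the double knockout. For 11 genes no group was above background in Rb KO against WT, so a call there shows a difference in readings and its size is not a measured fold.

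By class, the median log2 difference of the genes with their own probe set in Rb KO and in the double knockout was 1.38 and 1.07 for H1, 2.05 and 1.75 for H2A, 1.76 and 1.58 for H2B, 2.40 and 2.60 for H3, and 0.82 and 0.56 for H4. Among shared probe sets it was 2.15 and 1.94 for H2A, 2.19 and 2.10 for H2B, 1.88 and 2.06 for H3, and 1.25 and 1.11 for H4. These medians rest largely on dim readings. Above background in both groups of each comparison with WT were 1 of 5 H1 genes, Hist1h1c, 2 of 6 H2A genes and 1 of 7 H2B genes. Of the 3 H3 and 2 H4 genes there were 0. Among shared sets it was 2 of 7 for H2A, 6 of 9 for H2B, 2 of 4 for H3 and 4 of 10 for H4. Any array of a group sufficed for these counts. In WT, 14 of the 33 shared sets had some array above background, and only 8 had all 3. The order of the class medians is thus not an order of measured folds. Differences between classes were not tested, because copies of a class share sequence and are not replicates.

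**Figure D1:**
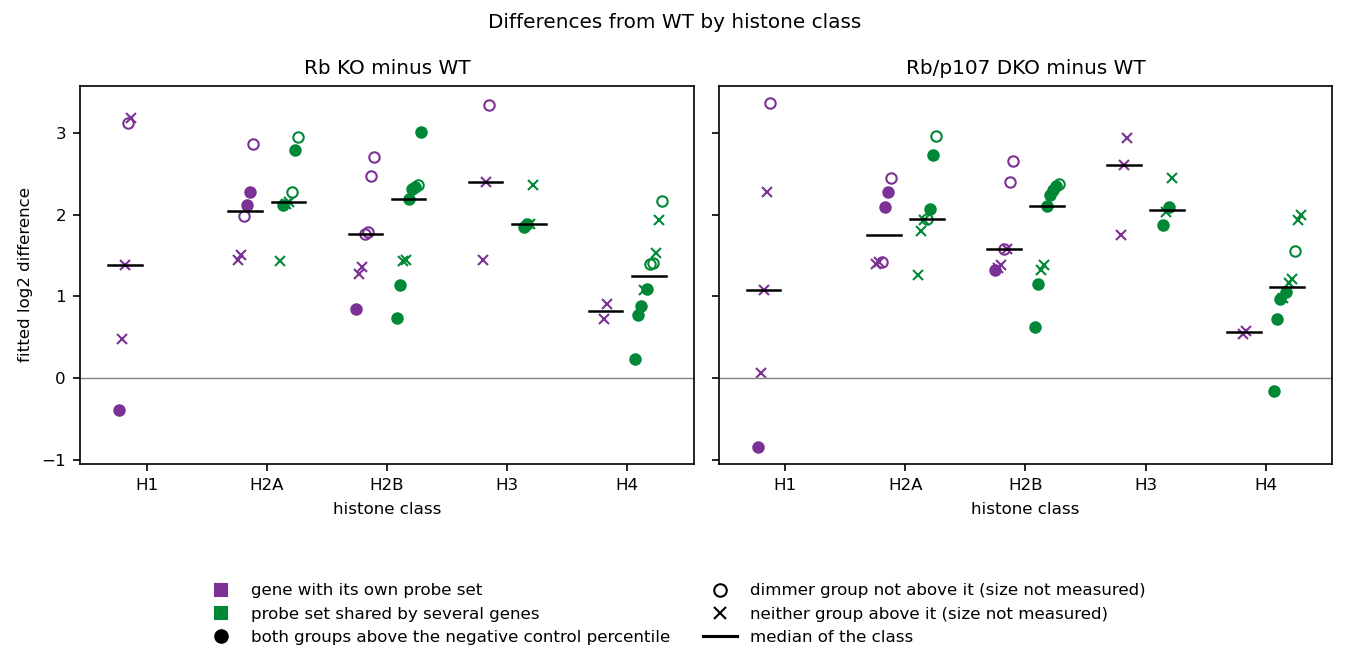
Fitted log2 difference from WT (vertical axis) by histone class (horizontal axis) in Rb KO and in the double knockout, for genes with their own probe set and for shared probe sets of a single class; filled circles have both groups above background, open circles and crosses do not, and the black lines are class medians. Hist1h1c is the lowest point among the genes with their own probe set. Values at open circles and crosses are differences in readings, not measured folds. For a filled circle any array of each group above background sufficed, so some WT arrays there can be below it.

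H2A, which forms a dimer with H2B at the edges of the nucleosome core, held members that were bright in every group. Hist1h2af read 11.41, 11.51 and 11.11 in the WT retinas, 13.71, 13.64 and 13.51 in Rb KO retinas, and 13.69, 13.56 and 13.60 in the double knockout. Every mutant array was above every WT array and the mutants overlapped each other. The gene was 4.85-fold higher in Rb KO (log2 2.28, SE 0.10, adjusted p = 1.76e-07) and 4.83-fold higher in the double knockout (adjusted p = 1.11e-07). Hist1h2aj, listed in RefSeq as a pseudogene, read 11.70, 11.75 and 11.42 in WT retinas, 13.83, 13.77 and 13.60 in Rb KO retinas, and 13.77, 13.67 and 13.69 in the double knockout. It was 4.32-fold and 4.25-fold higher, with the same separation of the groups (adjusted p = 2.08e-07 and 1.41e-07). The highest reading of any probe set was 13.91 to 13.95 on 8 arrays and 14.001 on Rb KO replicate 1, so both genes read near the top of the scale in the mutants; whether this compressed their differences was not tested. H2A genes are near-identical copies, and signal from copies other than the named gene cannot be told apart.

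The other 4 H2A genes were below background in WT. Hist1h2aa, the testis H2A, read 7.70, 7.62 and 7.42 in WT retinas, 9.70, 9.71 and 9.27 in Rb KO retinas, and 9.11, 8.88 and 9.01 in the double knockout. All mutant arrays were above background and above WT, and the double knockout lay below Rb KO. It was at least 2.66-fold higher in Rb KO (adjusted p = 1.92e-06) and at least 1.80-fold higher in the double knockout (adjusted p = 1.68e-05). A bound sets the mutant mean against the control percentile of the dimmer group. Hist1h2ap read 5.08, 4.56 and 4.16 in WT retinas, 6.21, 6.12 and 5.98 in Rb KO retinas, and 6.09, 5.92 and 5.98 in the double knockout, all below background, and was called in both (adjusted p = 0.000188 and 0.000227). Hist1h2ak was at least 3.44-fold and at least 2.60-fold higher. Hist1h2ah stayed below background with log2 differences of 1.45 and 1.42.

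Of the 7 H2B genes all were called higher in both mutants. Hist1h2bm read 7.09, 7.04 and 7.12 in WT retinas, 9.65, 9.67 and 9.32 in Rb KO retinas, and 9.73, 9.20 and 9.52 in the double knockout. The mutants overlapped and stood clear of WT, which was below background. The gene was at least 2.64-fold and at least 2.52-fold higher (adjusted p = 4.54e-07 and 4.37e-07). Hist1h2bk, whose promoter is printed above, read 6.16, 6.18 and 5.92 in WT retinas, 8.84, 8.92 and 8.62 in Rb KO retinas, and 8.83, 8.59 and 8.81 in the double knockout. It was at least 1.56-fold and at least 1.51-fold higher (adjusted p = 7.62e-08 and 5.52e-08), and its divergent partner Hist1h2ah was called higher as well. Hist1h2ba, the testis H2B, read 7.36, 7.36 and 7.26 in WT retinas, 9.14, 9.10 and 9.01 in Rb KO retinas, and 8.96, 8.90 and 8.84 in the double knockout. Its arrays fell into 3 groups that did not touch, and it was at least 1.91-fold and at least 1.68-fold higher than WT (adjusted p = 8.02e-08 and 1.11e-07).

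Hist3h2bb-ps, a transcribed pseudogene of the Hist3 locus, was the only H2B gene with its own probe set above background on all 9 arrays. It read 8.90, 8.79 and 8.62 in WT retinas, 9.64, 9.54 and 9.65 in Rb KO retinas, and 10.16, 9.94 and 10.16 in the double knockout. The groups were ordered without overlap. It was 1.79-fold higher in Rb KO (log2 0.84, SE 0.09, adjusted p = 0.000115) and 2.49-fold higher in the double knockout (log2 1.32, SE 0.09, adjusted p = 2.90e-06). Hist1h2bp read 5.94, 5.67 and 6.20 in WT retinas, 7.30, 7.34 and 6.99 in Rb KO retinas, and 7.50, 6.98 and 7.36 in the double knockout, below background throughout (adjusted p = 0.000261 and 0.000139). Hist1h2bb was at least 1.29-fold higher in Rb KO, and Hist1h2bh did not reach background in any group, with log2 differences of 1.36 and 1.58.

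The linker histones did not all move one way. Hist1h1b (H1.5) read 6.43, 6.78 and 6.45 in WT retinas, 9.83, 9.83 and 9.34 in Rb KO retinas, and 10.18, 9.65 and 9.91 in the double knockout. WT was below background and every mutant array above it. The gene was at least 2.86-fold and at least 3.40-fold higher (adjusted p = 4.52e-07 and 1.88e-07). Hist1h1c (H1.2) read 10.61, 10.44 and 9.80 in WT retinas, 9.77, 9.78 and 10.15 in Rb KO retinas, and 9.34, 9.48 and 9.54 in the double knockout, above background in all 9. The double knockout was below every WT array, while Rb KO overlapped WT. Hist1h1c fell 1.78-fold in the double knockout (log2 -0.83, SE 0.18, adjusted p = 0.00607) and differed from WT by -0.38 in Rb KO (SE 0.18, adjusted p = 0.163). Without WT replicate 3, the lowest WT array, the Rb KO difference was -0.63 (adjusted p = 0.00717). With the separation of control probe sets on each array as a covariate, the double knockout difference was -0.46 (adjusted p = 0.119). Over all alternatives the adjusted p ran from 0.00717 to 0.80 in Rb KO and from 0.000375 to 0.119 in the double knockout.

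The other 3 H1 genes read below background everywhere. Hist1h1t, expressed in testis, read 4.86, 4.91 and 4.68 in WT retinas, 5.30, 5.17 and 5.45 in Rb KO retinas, and 5.11, 4.66 and 4.88 in the double knockout. It was called in Rb KO (log2 0.49, adjusted p = 0.0135), a call lost without Rb KO replicate 3 (log2 0.41, adjusted p = 0.0504, the highest of a range from 0.0081), and differed by 0.07 in the double knockout (adjusted p = 0.730). Hist1h1a and Hist1h1d were called higher in both, with log2 differences of 3.18 and 2.27 for Hist1h1a and of 1.38 and 1.07 for Hist1h1d. The 4 measured germ cell markers other than histones were below background in every group, and 1, Ddx4, was called higher in the double knockout.

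H3 carries many of the tail modifications that mark chromatin. All 3 H3 genes were called higher in both mutants, none with a WT reading above background. Hist1h3c rose from 5.45, 4.96 and 4.85 in WT to 8.08, 8.74 and 8.47 in Rb KO, 2 of them above background, and read 8.05, 7.93 and 8.09 in the double knockout. It was at least 1.21-fold higher in Rb KO (adjusted p = 4.52e-07). Hist1h3f read 5.69, 5.40 and 5.42 in WT retinas, 6.93, 7.07 and 6.85 in Rb KO retinas, and 7.51, 6.93 and 7.31 in the double knockout, below background (adjusted p = 4.22e-05 and 7.44e-06). Hist1h3g, also below background, differed by 2.40 and 2.60.

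H4, which pairs with H3 in the core tetramer, had 2 genes of its own, and neither reached background. Hist1h4b read 4.25, 4.80 and 4.20 in WT retinas, 5.17, 5.22 and 5.04 in Rb KO retinas, and 5.07, 4.87 and 5.06 in the double knockout (adjusted p = 0.00384 and 0.0107). Hist1h4a differed by 0.91 and 0.55 (adjusted p = 0.000292 and 0.00514). Both were called higher in both mutants, with the mutant arrays above WT. A second, dimmer probe set of Hist1h4b read 3.46, 3.62 and 3.50 in WT retinas, 3.72, 3.78 and 3.80 in Rb KO retinas, and 4.03, 3.61 and 3.68 in the double knockout. It overlapped with WT in the double knockout and was called in neither mutant (adjusted p = 0.188 and 0.158).

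**Figure D2:**
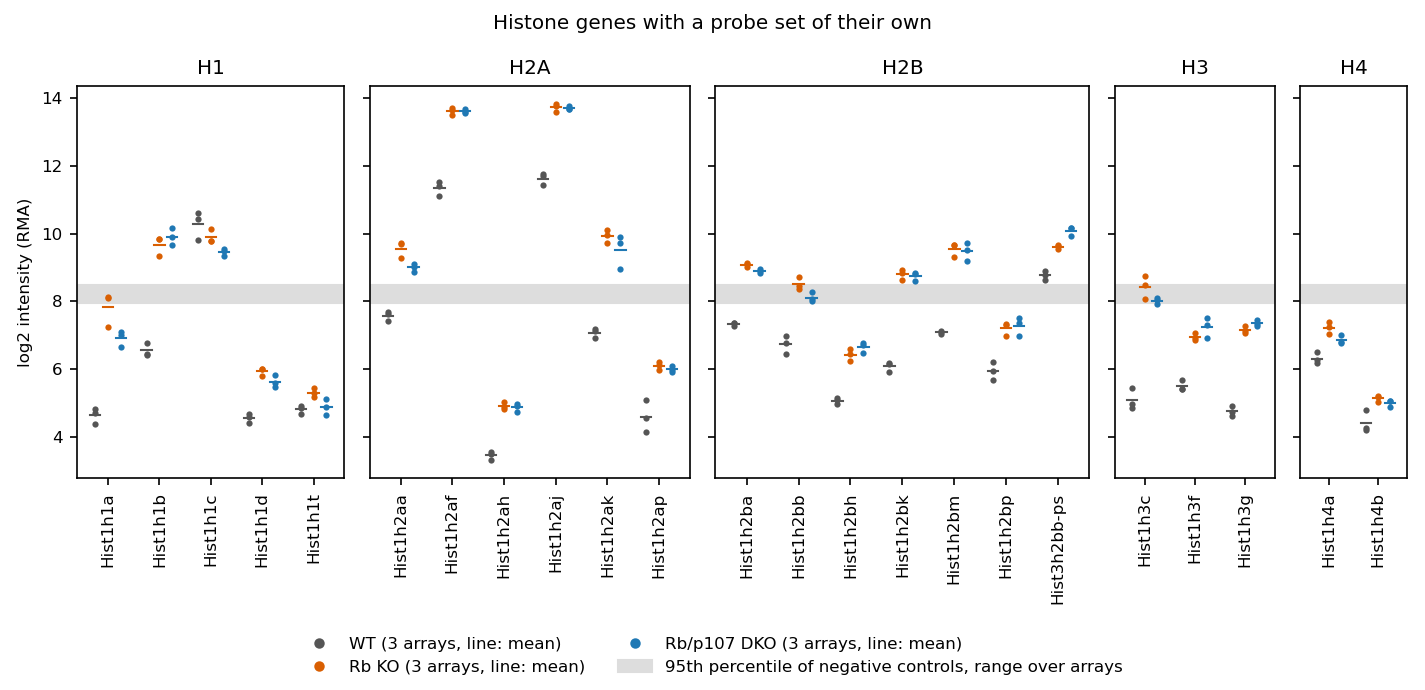
Log2 intensity (vertical axis) of the 23 genes with their own probe set in each of the 9 retinas, by class, with points for arrays and lines for group means; the grey band is the range over arrays of the 95th percentile of negative controls. Hist1h2af and Hist1h2aj lie at 11.11 to 11.75 in WT and above 13.5 in both mutants, most other genes start below the band in WT, and Hist1h1c is lower in the double knockout.

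Shared probe sets list the symbols of several genes, and the annotation used here does not say which of them a set reads. Each of the 7 H2A sets listed 10 symbols and each of the 10 H4 sets 13, while all histone probe sets together listed 60 gene IDs. The 33 sets therefore repeat genes and are not separate members, so their counts overstate the number of genes that moved. They were tested in a fit to all 52917 transcript clusters, chosen after the annotation had been seen. Of the 33, 31 were called higher, 1 lower and 1 not in each mutant, where 14.5% of all clusters were called in Rb KO (6.63% higher, 7.86% lower) and 19.8% in the double knockout (9.49% higher, 10.3% lower). The median log2 difference was 1.88 in Rb KO and 1.79 in the double knockout, against -0.05 for all clusters in both. In WT 14 of the 33 were above background on some array, and 13 of these 14 were called higher in each mutant. All 32 called sets had arrays that did not overlap with WT, as 29.1% and 35.8% of all clusters did.

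The brightest shared H2A set, listing 10 symbols with Hist1h2an first, read 11.61, 11.71 and 11.31 in WT retinas, 13.76, 13.66 and 13.55 in Rb KO retinas, and 13.68, 13.54 and 13.60 in the double knockout. It was 4.32-fold and 4.19-fold higher (adjusted p = 2.21e-06 and 1.79e-06), and like the bright H2A genes it read near the top of the scale in the mutants. The H2B set of 4 symbols headed by Hist1h2bl read 10.96, 11.03 and 10.79 in WT retinas, 13.17, 13.17 and 13.02 in Rb KO retinas, and 13.23, 13.09 and 13.16 in the double knockout. It was 4.58-fold and 4.71-fold higher (adjusted p = 6.56e-07 and 4.08e-07), and the set headed by Hist1h2bn was 5.04-fold and 5.10-fold higher. For H3, the set of 8 symbols headed by Hist1h3e read 10.04, 10.08 and 9.77 in WT retinas, 11.83, 11.87 and 11.73 in Rb KO retinas, and 12.23, 11.90 and 12.03 in the double knockout. It was 3.60-fold and 4.26-fold higher (adjusted p = 5.31e-06 and 1.64e-06).

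The other shared sets of these classes were all called higher in both mutants. The 6 further H2A sets differed from WT by 1.43 to 2.95 in Rb KO and 1.26 to 2.96 in the double knockout, and 1 of them, headed by Hist1h2ag, had a WT array above background. The H2B sets headed by Hist1h2bf and Hist1h2bj differed by 2.30 to 2.37, the latter below background in WT. Those headed by Hist1h2bq and Hist1h2br, below background in every group, differed by 1.32 to 1.45. The 3 further H3 sets differed by 1.87 to 2.44. Those headed by Hist1h3h, which gave the highest value, and by Hist1h3i were below background in every group. The sets that mixed H1 with H2B (Hist1h2be first) and H2A with H3 (Hist1h2ad first) stayed below background, with differences of 0.76 and 0.67 and of 2.07 and 1.78.

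H4 sets each listed 13 symbols, and the 4 with WT arrays above background differed from WT by 1.09 at most on the log2 scale. The set headed by Hist1h4c read 11.20, 11.63 and 11.62 in WT retinas, 11.77, 11.81 and 11.57 in Rb KO retinas, and 11.48, 11.25 and 11.24 in the double knockout. Both mutants overlapped with WT and it was not called (log2 0.24, adjusted p = 0.282, and -0.16, adjusted p = 0.455). The set headed by Hist1h4d read 10.35, 10.35 and 10.10 in WT retinas, 11.42, 11.45 and 11.20 in Rb KO retinas, and 11.43, 11.22 and 11.29 in the double knockout, 2.14-fold and 2.07-fold higher (adjusted p = 0.000145 and 0.000131). The sets headed by Hist1h4h and Hist1h4i were called higher as well, with log2 differences of 0.72 to 0.97. The remaining 6 H4 sets were below background in WT and were called higher with differences of 0.98 to 2.16.

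Among the H2B sets, those headed by Hist1h2bc and Hist1h2bg read lower in the double knockout than in Rb KO, and neither difference was called. The first read 10.62, 11.25 and 10.86 in WT retinas, 12.11, 12.15 and 11.88 in Rb KO retinas, and 11.83, 11.43 and 11.36 in the double knockout, a rise of 2.20-fold and 1.55-fold (adjusted p = 0.00187 and 0.0273). The second read 7.72, 8.02 and 7.54 in WT retinas, 10.67, 10.90 and 10.74 in Rb KO retinas, and 10.29, 9.48 and 9.82 in the double knockout, a log2 difference of 3.01 and 2.10 with 1 WT array above background, so its size is not a measured fold. In both, the double knockout arrays lay below Rb KO without overlap. The Hist3 set of Hist3h2ba and Hist3h2bb-ps was 1.67-fold and 2.22-fold higher. The set called lower in both mutants listed Trim17, which is no histone gene, with Hist3h2a. It stayed below background (log2 -0.54 and -0.44). These sets were chosen for mention after their values were seen.

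**Figure D3:**
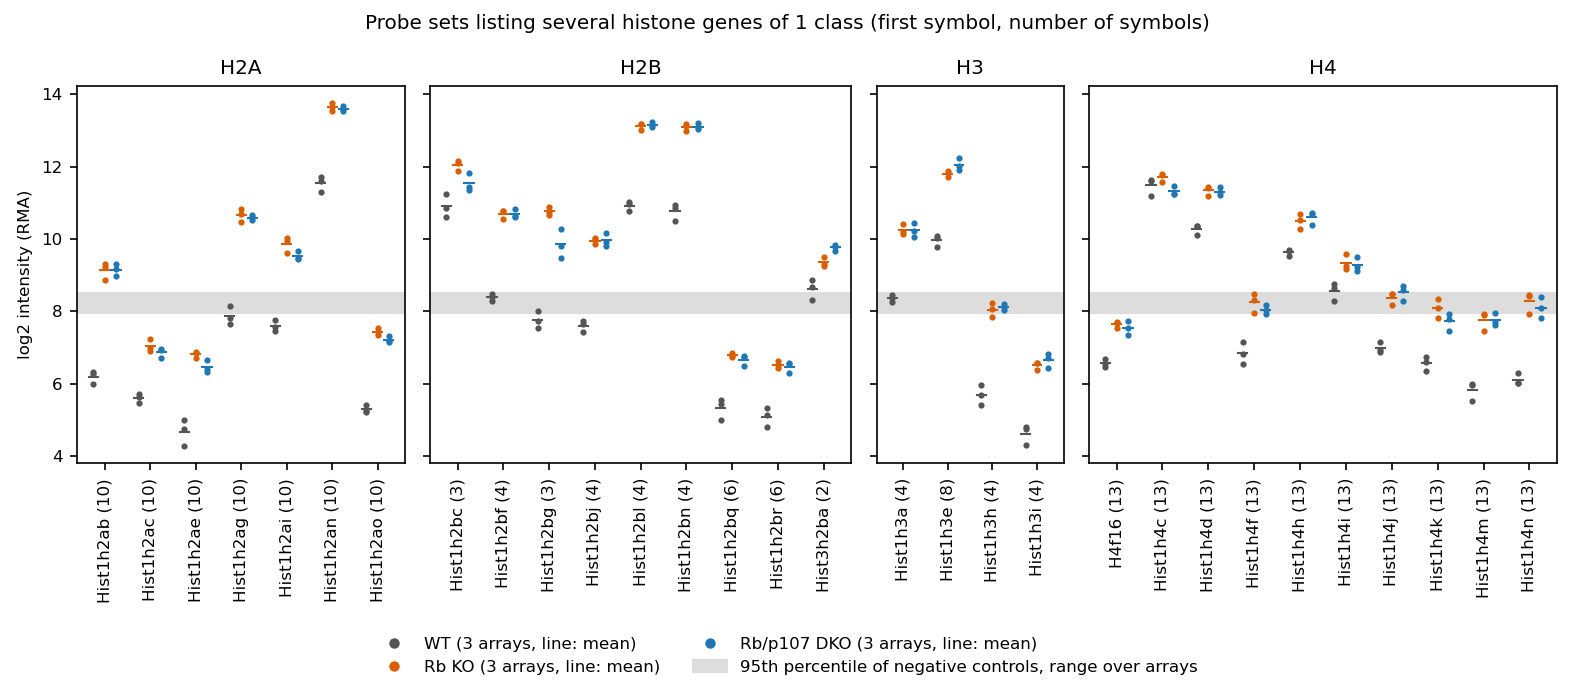
Log2 intensity (vertical axis) of the 30 shared probe sets that list a single histone class, in each retina, with points for arrays, lines for group means and the grey band for the background percentile. The set headed by Hist1h4c overlaps between WT and each mutant, at 11.20 to 11.81, while the other sets lie higher in both mutants than in WT.

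Few histone genes were called between the mutants. Of the 23, 1 was called higher in the double knockout than in Rb KO and 1 lower, where 2.5% of all genes were called (1.3% higher, 1.2% lower). Leaving out an array in turn moved the count over all genes, 607, to between 252 and 858. The median difference was -0.11 for the 23 genes and -0.003 for all genes. Hist3h2bb-ps was 1.39-fold higher in the double knockout (log2 0.48, SE 0.09, adjusted p = 0.0267) and Hist1h2aa was 1.47-fold lower (log2 -0.56, SE 0.13, adjusted p = 0.0462). Neither call held under every alternative. The Hist3h2bb-ps call was lost without any Rb KO replicate, or without replicate 1 or 3 of the double knockout (log2 0.44 to 0.50, adjusted p = 0.0732 to 0.126). The Hist1h2aa call was lost without replicate 1 or 3 of WT, replicate 1 or 2 of Rb KO or any double knockout replicate (log2 -0.61 to -0.48, adjusted p = 0.0539 to 0.171), with only the 6 arrays compared (0.0538) and with the control covariate (0.0644).

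The other 21 genes were not called. The largest difference of the 23 was among them, that of Hist1h1a (log2 -0.90, SE 0.22, adjusted p = 0.0606). Its mutant arrays did not overlap and were all below background. Differences were negative for 17 of 23 genes and positive for 6, where 50.9% of all genes were negative. Of the 23, 10 had an unadjusted p under 0.05, 1 higher and 9 lower, against 13.6% of all genes (7.58% higher, 5.99% lower). The arrays of the mutants did not overlap for 8 of 23 genes, as for 22.1% of all genes. Hist1h2af differed by -0.003 (SE 0.10) and Hist1h2aj by -0.02 (SE 0.10), both near the top of the scale in the mutants. Among the 33 shared sets limma called none (1.15% of all clusters were called), with 7 under an unadjusted p of 0.05, against 10.6% of all clusters, and a median of -0.05. The mutants' arrays did not overlap for 7 of the 33, as for 20.1% of all clusters. The nearest was the set headed by Hist1h2bg (log2 -0.91, SE 0.19, adjusted p = 0.0583).

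**Figure D4:**
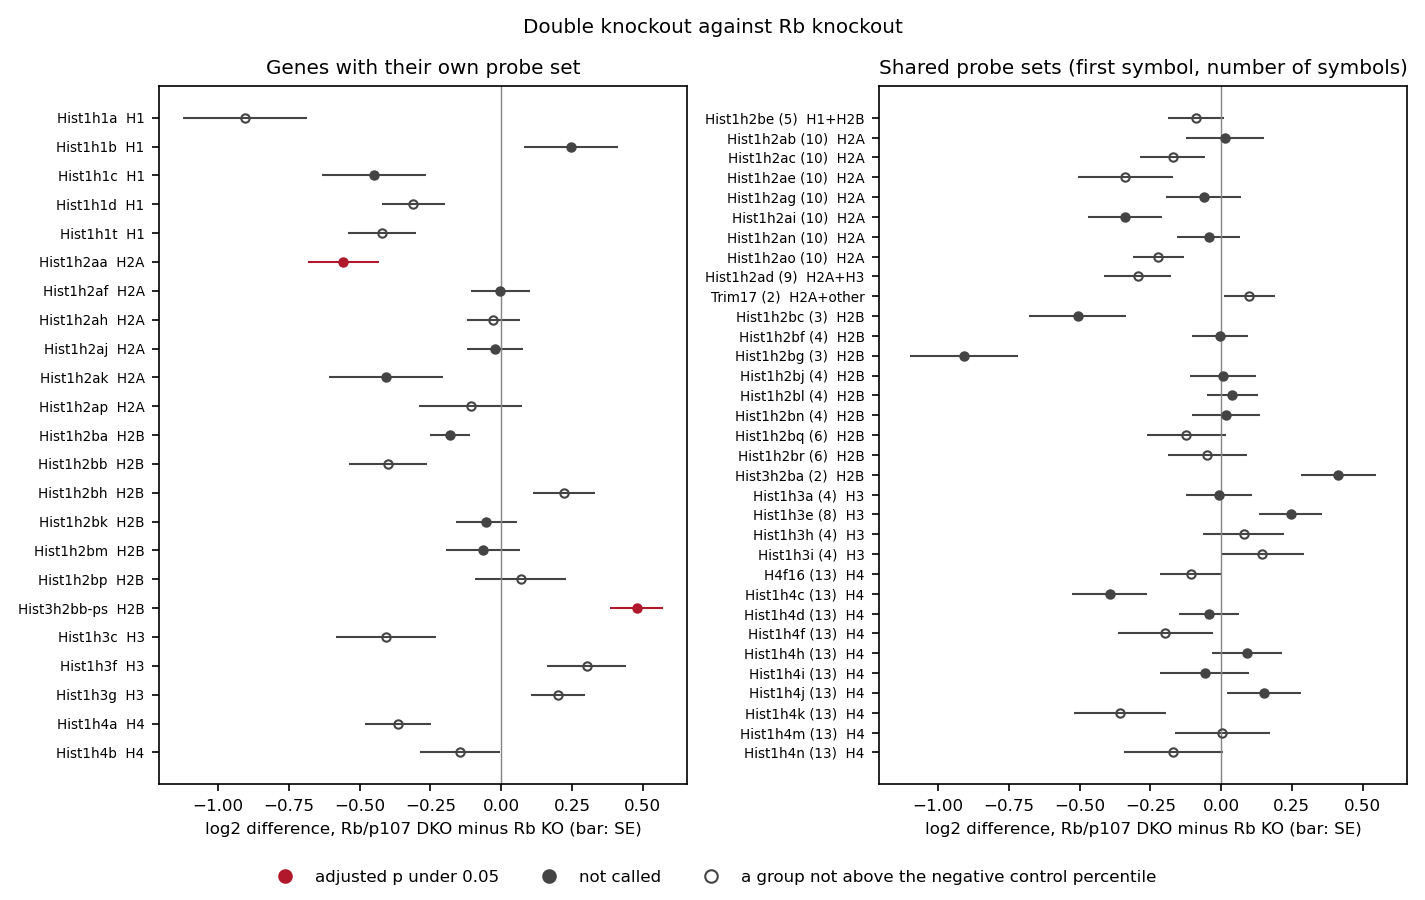
Log2 difference of the double knockout minus Rb KO (horizontal axis, bars are SE) for the 23 genes and the 33 shared probe sets, with called genes in red and open points where a group was not above background. Hist3h2bb-ps at 0.48 and Hist1h2aa at -0.56 are the called points, and 17 of the 23 genes and 21 of the 33 sets lie below 0.

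Genes that make, process and handle histones were described beside them. Over all genes, 10.2% were called higher and 14.3% lower in Rb KO, and 12.2% and 17.1% in the double knockout. Of 22 measured genes of S phase entry and the replication fork, 21 were called higher and 1 lower in Rb KO, and 21 higher in the double knockout, with medians of 2.06 and 2.17. Rrm2, a subunit of ribonucleotide reductase, read 6.32, 6.49 and 6.19 in WT retinas, 10.44, 10.72 and 10.37 in Rb KO retinas, and 10.62, 10.29 and 10.66 in the double knockout, at least 5.13-fold and at least 5.19-fold higher. Cdk2, the S phase kinase, was at least 3.04-fold and at least 3.49-fold higher. Rpa1, a single-strand DNA binding subunit, differed by -0.28 in Rb KO, where it was called, and by -0.20 in the double knockout (adjusted p = 0.0733).

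Histone chaperones, which carry new histones to DNA, gave 14 of 18 measured genes higher in Rb KO and 11 higher in the double knockout, none lower, with medians of 0.33 and 0.45. Leaving out an array in turn gave 9 to 13 called in Rb KO. Mcm2, a helicase subunit that also binds H3 and H4, was at least 4.68-fold and at least 5.35-fold higher. This gene was counted in the S phase list as well, so the lists are not fully separate. Chaf1b, a subunit of the chromatin assembly factor CAF-1, was at least 1.36-fold and at least 1.65-fold higher. Of the 14 measured genes of histone mRNA synthesis, processing and decay, 4 were called higher and 1 lower in Rb KO. In the double knockout 4 were called higher and 2 lower. Of all genes, 24.4% and 29.3% were called. The medians of the list were 0.13 and 0.14, against -0.05 and -0.06 over all genes. Slbp, the stem-loop binding protein, read 7.16, 7.19 and 7.09 in WT retinas, 8.66, 8.81 and 8.59 in Rb KO retinas, and 8.82, 8.64 and 8.63 in the double knockout, at least 1.45-fold and at least 1.46-fold higher (adjusted p = 5.25e-07 and 3.98e-07). Eri1, an exonuclease acting on the stem-loop, was at least 1.33-fold and at least 1.60-fold higher. Npat, a coactivator of histone genes, was called higher by 0.43 and 0.54. Lsm11, a component of the U7 snRNP that cleaves histone messages, was called lower by 0.44 and 0.34 on the log2 scale.

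Of 7 measured replication-independent histone variants, 5 were called higher in Rb KO and 5 higher and 1 lower in the double knockout, with medians of 0.70 and 0.74. H2afy2, a macroH2A gene, read 9.74, 10.39 and 10.03 in WT retinas, 11.40, 11.57 and 11.41 in Rb KO retinas, and 11.75, 11.60 and 11.73 in the double knockout, a log2 rise of 1.41 and 1.64. Cenpa, the H3 variant of centromeres, was called higher in both and between the mutants (log2 0.60, adjusted p = 0.0220), a call that leaving out an array could end. Between the mutants limma called no gene of mRNA processing and none of the chaperones, with 1 of 14 and 4 of 18 under an unadjusted p of 0.05, against 13.6% of all genes. Of the 22 S phase genes limma called 1, Tk1, higher in the double knockout (log2 0.65, adjusted p = 0.0295). Leaving out an array could end that call. Under an unadjusted p of 0.05 were 8 of the 22, 7 of them higher. Differences were positive for 20 and negative for 2, with a median of 0.22, against -0.11 for the 23 histone genes.

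**Figure D5:**
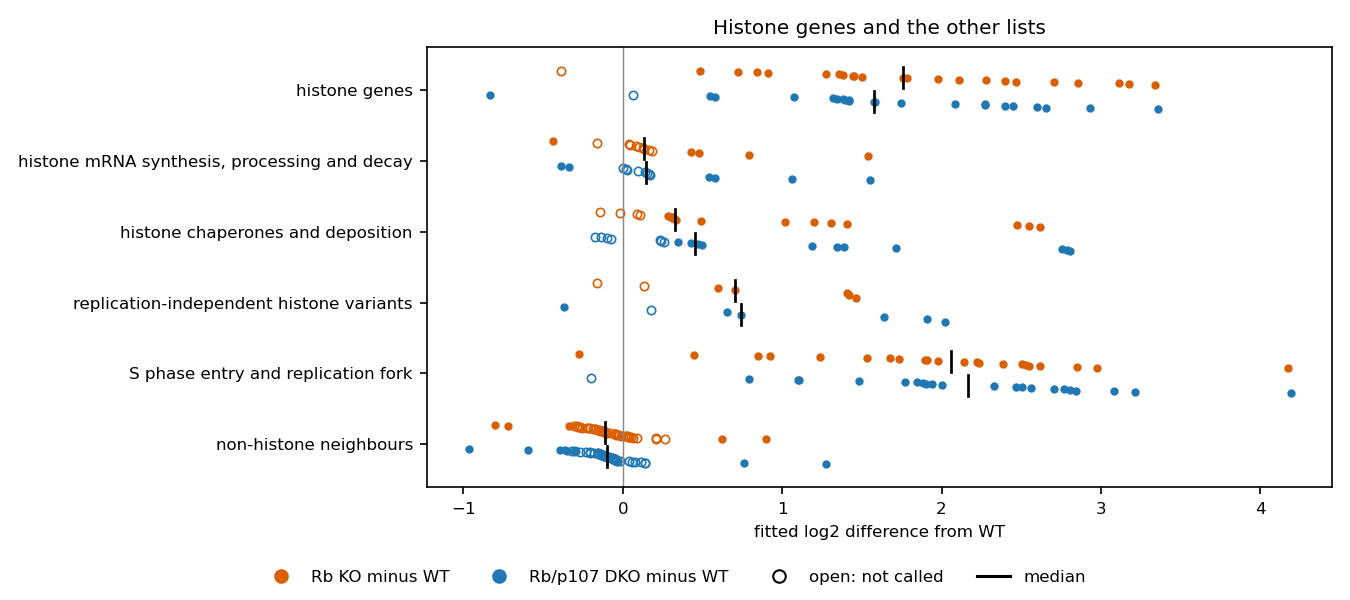
Fitted log2 difference from WT (horizontal axis) for the 23 histone genes, the 4 pathway lists and the genes lying between histone genes, with points for genes (open where not called) and black lines for medians in Rb KO and in the double knockout. The medians of the S phase genes, at 2.06 and 2.17, and of the histone genes, at 1.76 and 1.58, lie to the right of the others, and the neighbours lie around -0.11 and -0.10.

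Genes lying among the histone genes were described for the same stretch of chromosome. Of 49 measured non-histone protein-coding neighbours, 2 were called higher and 3 lower in Rb KO, and 2 higher and 6 lower in the double knockout, with medians of -0.11 and -0.10. Over all genes, 24.4% were called in Rb KO and 29.3% in the double knockout. Only 3 of the 49 neighbours were above background in any group, and all but 14 are vomeronasal receptors. With so few above background, these counts cannot show whether the stretch changed. The neighbours called higher were Zfp184, below background, and Gm11295 (log2 0.90 and 1.28).

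Markers of other cell types also moved between the groups, and their part in the histone differences was not tested. Over all genes, 24.4% were called in Rb KO and 29.3% in the double knockout. Of the 8 measured retinal markers, 7 were called lower and 1 higher in Rb KO, and 6 lower and 1 higher in the double knockout. Averaged per array they read 10.87 to 10.95 in WT retinas, 9.81 to 10.37 in those of Rb KO and 9.62 to 10.09 in the double knockout. Of 8 microglial markers 6 were called higher in Rb KO and 5 in the double knockout, with array means of 7.19 to 7.32 in WT retinas, 7.56 to 8.11 in Rb KO and 7.82 to 8.18 in the double knockout. Only 3 of these 8 were above background in any group. All 5 pigment epithelium markers were called lower in both, with array means of 7.99 to 8.45 in WT retinas, 6.66 to 6.98 in Rb KO and 6.55 to 6.78 in the double knockout. Of 6 lens markers none was called in Rb KO and 3 were called higher in the double knockout. They reached an array mean of 9.27 in the double knockout, on replicate 2, against 7.20 at most in WT and 7.47 at most in Rb KO. The 2 measured erythrocyte markers stayed below background. Counts of histone genes called against WT were 21 to 23 in Rb KO and 22 in the double knockout when each array was left out in turn. Leaving out single arrays cannot separate the histone differences from marker shifts that all arrays of a group share.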

How the data were processed

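Total RNA of 9 retina samples with an integrity score above the submitters' minimum was hybridised to an Affymetrix whole-transcript array, per the labels' protocols. The authors deposited log2 values normalised by RMA, per the submitters' processing notes; the RMA version, annotation build and probe filters are not given in the sources used here. From these, limma 3.58.1 in R 4.3.3 (lmFit, eBayes, no covariate) was fitted to all 9 arrays, with the brightest probe set for each of 24261 genes and Benjamini-Hochberg adjustment over all of them; shared probe sets were tested in an added fit to 52917 transcript clusters. The fit was tested on simulated data. Array number limits the precision. The members, gene lists and named genes were chosen with earlier results of these data known. Named genes were, per class, those with the lowest and the highest F-test p, those called lower or between mutants, the testis members and Hist3 genes, and from each other list the called genes with the lowest p in each direction. Promoters are RefSeq's (GRCm38.p6). Protein sequences were not used here. Alternatives changed the normalisation, probe set choice, dim filter, variance model, arrays fitted, weights, covariate, replicate block and each array left out.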

Additional observations from a re-analysis of the deposited data

How the results depend on the processing

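Of 741 recomputed values of 14 named genes, 724 kept their direction and their side of the threshold, 16 lost a call, 1 gained one and none reversed; those that changed stand beside their genes. Requiring readings above background on 3 arrays left 10 genes and 18 shared sets, of which 9 and 10 genes (medians 2.19 and 2.18) and 17 and 17 sets (median 2.004 in the double knockout) were called in Rb KO and the double knockout; 6 of the 10 genes and 4 of the 18 sets passed through mutant arrays alone and so had to differ, and these counts and medians support nothing. Between the mutants, 1 histone gene was called with only the 6 arrays compared or with the control covariate, 0 to 2 without an array in turn; of shared sets 1 was called with the dim filter, a variance trend or 6 arrays, 2 with array weights, and 0 to 1 without an array. The same comparison gave 1 chaperone (dim filter, weights), 0 variants with the dim filter, 2 with weights and 0 to 1 without an array, and 3 S phase genes (dim filter, weights, covariate) and 0 to 1 without an array. Against WT, 3 mRNA processing genes were called in Rb KO with the covariate, 9 to 13 chaperones without an array, 1 neighbour with the dim filter, and in the double knockout 4 neighbours after renewed quantile normalisation, 2 with the dim filter, 5 with the covariate and 3 to 9 without an array. The causes were not tested. Over all genes the count between mutants was 607, 1349 with array weights, and 252 to 858 without an array. Replicate numbers did not pair the arrays (correlations of same-numbered arrays from -0.16 to 0.15); with the replicate block, 22 histone genes were called against WT in each mutant, 2 between mutants, and 32, 32 and 0 shared sets. Dim readings limit most sizes.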
